A study of Homo sapiens with 2 samples.

Results

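The protein kinase C (PKC) and protein kinase D (PKD) genes were examined by RNA-seq in Ramos cells and in Ramos640 cells, their rituximab-resistant derivative. The members were the rows of the count table with the symbols PRKCA, PRKCB, PRKCD, PRKCE, PRKCH, PRKCI, PRKCQ, PRKCZ, PRKD2 and PRKD3, which are 10 of 37122 genes. All 10 had at least 10 reads in the 2 libraries together, as did 18778 genes of the table. Ramos is a human Burkitt's lymphoma (BL) line of B-cell origin, and Ramos640 was selected from it with rising rituximab in the presence of normal human serum (NHS). To keep Ramos640 resistant, rituximab at 640 (μg/mL in the study's methods, mg/mL in the sample labels) was given with 20% NHS every 21 days, and both lines grew in the same serum-containing medium. RNA from 3 passages of each line was pooled into 1 library per line, so no difference below has a replicate check, and the selection, the maintenance treatment and drift in culture cannot be told apart.

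PKC isoforms are serine/threonine kinases grouped by what switches them on. Conventional isoforms (alpha and beta among them) need calcium and diacylglycerol, the calcium-independent isoforms (delta, epsilon, eta, theta) need diacylglycerol alone, and atypical isoforms (iota, zeta) need neither. PKD kinases bind diacylglycerol too and are phosphorylated by calcium-independent PKCs, which places them downstream in the same pathway. In B cells the antigen receptor activates phospholipase C gamma 2, the diacylglycerol that it makes recruits PKC beta, and PKC beta relays the signal towards NF-κB. The study probed PKC proteins, among them alpha, beta1, beta2 and eta, by immunoblotting and used midostaurin, an inhibitor with many PKC targets, and the question for the RNA is which of these genes each line transcribes and which differ between the libraries.

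PRKCB, the gene of PKC beta, was read in Ramos and not read at all in Ramos640. PRKCH (PKC eta) and PRKCI (PKC iota) were also lower in Ramos640 by more than 1.5-fold, and no member was higher by that much. PRKCA (PKC alpha) and PRKCD (PKC delta), both abundant, were higher by less than 1.5-fold. The 3 members past 1.5-fold are 30% of the family, where 17.3% of all genes tested were lower and 14.6% were higher by as much. The median log2 fold change of the 10 members, Ramos640 over Ramos, was -0.24, against -0.015 over all genes tested (quartiles -0.40 and 0.34). Setting PRKCB to its bound cannot move this median, because PRKCB is the lowest member either way.

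**Figure D1:**
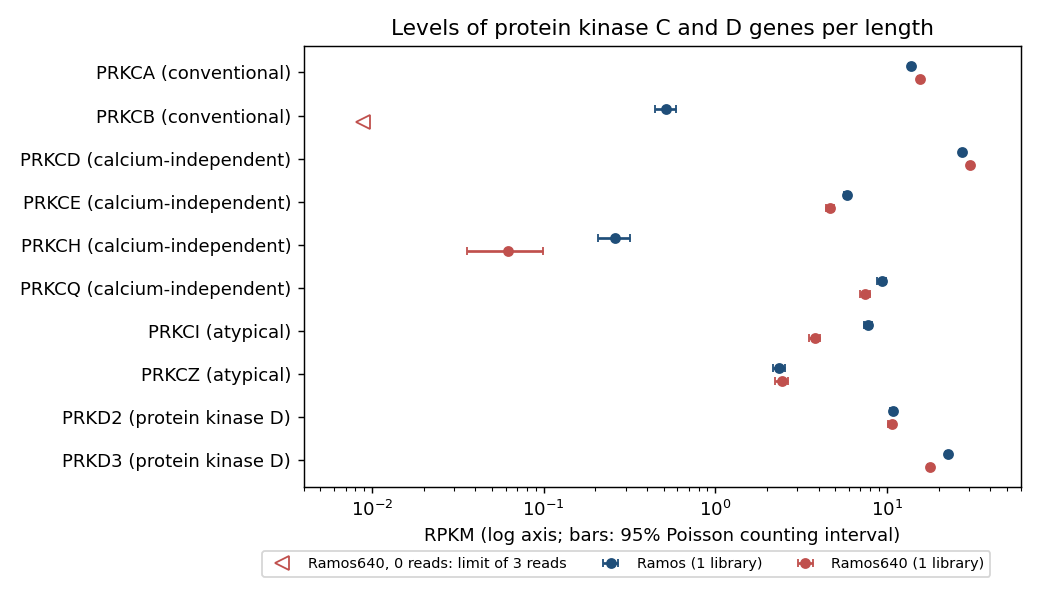
Levels of the 10 PKC and PKD genes in RPKM (read counts scaled to exon length and to the library total, log axis) in the Ramos and Ramos640 libraries, 1 point per library with the 95% Poisson counting interval. PRKCB had 0 reads in Ramos640 and is drawn as an open triangle at the limit of 3 reads, and PRKCH, PRKCI and PRKCB show the widest gaps between the libraries.

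The promoters of these 3 genes and of PRKCA are shown, because PRKCB, PRKCH and PRKCI are the members past 1.5-fold and PRKCA is the class mate of PRKCB that is not. Each line is the 250 bases before the RefSeq start site (table build GRCh38.p14), 5′ to 3′ on the strand of the gene, and each matched GRCh37 exactly and at 1 place, namely PRKCB at chr16:23847054-23847303, PRKCA at chr17:64298481-64298730, PRKCH at chr14:61788047-61788296 and PRKCI at chr3:169939962-169940211, all on the plus strand. The PRKCH start in RefSeq lies inside the GENCODE span of the gene given below. Capitals mark GC boxes (GGGCGG or its reverse complement) and the octamer ATGCAAAT, a known element of B-cell promoters.
PRKCB: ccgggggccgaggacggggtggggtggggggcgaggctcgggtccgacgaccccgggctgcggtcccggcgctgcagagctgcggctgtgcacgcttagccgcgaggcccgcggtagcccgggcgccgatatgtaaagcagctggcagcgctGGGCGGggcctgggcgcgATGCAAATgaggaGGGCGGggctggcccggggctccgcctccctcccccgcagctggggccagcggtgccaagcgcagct
PRKCA: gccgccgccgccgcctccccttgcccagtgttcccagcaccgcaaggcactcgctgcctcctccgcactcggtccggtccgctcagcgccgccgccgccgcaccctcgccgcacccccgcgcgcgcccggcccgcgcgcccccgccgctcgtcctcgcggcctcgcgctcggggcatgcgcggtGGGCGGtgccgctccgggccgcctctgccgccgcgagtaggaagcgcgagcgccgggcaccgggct
PRKCH: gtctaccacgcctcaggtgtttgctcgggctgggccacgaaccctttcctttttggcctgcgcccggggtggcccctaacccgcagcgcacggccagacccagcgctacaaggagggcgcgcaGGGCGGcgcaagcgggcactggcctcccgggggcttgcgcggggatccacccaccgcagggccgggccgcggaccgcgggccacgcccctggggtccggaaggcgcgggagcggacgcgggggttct
PRKCI: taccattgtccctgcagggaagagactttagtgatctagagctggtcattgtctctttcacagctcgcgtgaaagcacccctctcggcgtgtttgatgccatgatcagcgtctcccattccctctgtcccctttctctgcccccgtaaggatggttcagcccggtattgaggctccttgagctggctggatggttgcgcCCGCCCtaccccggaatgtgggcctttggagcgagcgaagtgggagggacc

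Each of the 10 members had at least 1 promoter window in the RefSeq table, 16 windows in all. The PRKCB window held 2 GC boxes and 1 octamer, which begins 80 bases before the start, and none of the other 15 windows held an octamer on either strand. Over 34788 windows of this length, 42.6% held a GC box and 1.62% held an octamer. The octamer was searched for after the PRKCB sequence had been read. PRKCB and PRKCH had 30 CpG dinucleotides each in their windows, PRKCA had 47 and PRKCI had 12, against a median of 11 over all windows, so the genes that were lower included both CpG-rich and ordinary promoters. TATAAA occurred in the PRKCQ window alone among the members (10.8% of all windows), and CACGTG in none (6.31%). These matches describe the letters and say nothing about which factors were bound.

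The conventional class went in opposite directions. PRKCA, the gene of the widely expressed alpha isoform, lies on chromosome 17 from 64298731 to 64806861 (GRCh37) with 5842 reads counted in Ramos against 5368 for Ramos640. After division by the size factors of the libraries (1.14 and 0.876) these were 5119 and 6126 normalized reads, a log2 fold change of 0.26 (95% counting interval 0.21 to 0.31). PRKCA thus differed by more than counting error but by less than 1.5-fold. All intervals here cover the sampling of reads and not the variation between cultures.

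PRKCB, on chromosome 16 from 23847304 to 24231932, had 216 reads in Ramos and 0 in Ramos640. By the library totals, 175 reads at the depth of the Ramos640 library would correspond to the Ramos level. The folds that follow use the size factors. Against the floor of 3 reads that a count of 0 allows, the Ramos640 level was at least 55.3-fold lower, or at least 44.6-fold lower by the limit of the counting interval. The beta1 and beta2 proteins are splice forms of this gene that differ at the carboxyl end, and gene counts do not separate them, so the count of 0 covers both. Even in Ramos its level was low, with 0.514 RPKM (read counts scaled to exon length and library total, counting interval 0.448 to 0.587) beside 13.7 RPKM for PRKCA.

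A count of 0 in Ramos640 beside so many reads in Ramos was rare. Of the 18778 genes tested, 3 genes, or 0.016%, had at least 100 reads in Ramos and 0 in Ramos640, and of the 12418 genes with at least 100 Ramos reads, 0.0805% had 3 or fewer in Ramos640. Ordered by their Ramos reads, the genes with 0 reads in Ramos640 began with IL7R (237 reads), the interleukin 7 receptor of precursor B cells and T cells. PRKCB came next, followed by TLL1 (111), LILRA3 (61), ATP11A (60) and AK5 (57). LILRA3 was not placed on GRCh37 by its symbol, and the other 4 lie on chromosomes 5, 4, 13 and 1, so none of the placed genes shares a chromosome with PRKCB.

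Most genes on either side of PRKCB were near their Ramos level. Of the nearest 5 genes with at least 10 reads on each side, 1 was past 1.5-fold, and the median log2 fold change of the 10 was 0.043. On the side of lower coordinates lay NDUFAB1 (0.066), PALB2 (0.051), DCTN5 (0.14) and PLK1 (0.034), a mitotic kinase with 7829 and 6156 reads. ERN2, the nearest of all on that side, had 18 and 4 reads (-1.59, interval -3.81 to -0.19). Beyond PRKCB lay RBBP6 (-0.093), TNRC6A (0.072), ARHGAP17 (-0.44), LCMT1 (0.17) and ZKSCAN2 (-0.26). Among these genes, only PRKCB and the weakly read ERN2 were past 1.5-fold. Genes with fewer than 10 reads were left out, and whether PRKCB and ERN2 share a cause was not tested.

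**Figure D2:**
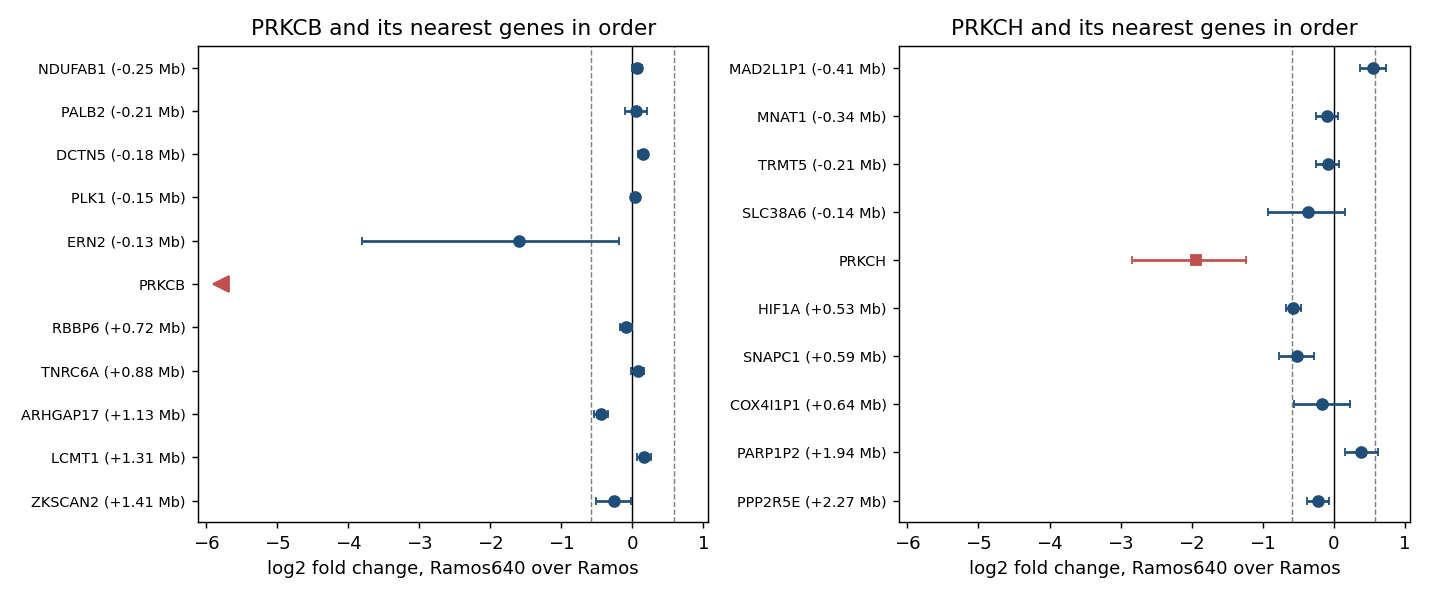
Log2 fold change, Ramos640 over Ramos, of PRKCB (left) and PRKCH (right) in red and of genes among the nearest 5 with at least 10 reads on each side in blue, in chromosome order, with the distance of each gene's middle from the start of the member in Mb and 95% counting intervals as bars. The red triangle is the bound for PRKCB at -5.79, and dashed lines mark 1.5-fold. Most neighbours of PRKCB lie near 0, with ERN2 below the lower line. Those drawn for PRKCH are spread from -0.57 (HIF1A) to 0.56 (MAD2L1P1).

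Among the calcium-independent isoforms, PRKCH stood apart from the other 3. PRKCH lies on chromosome 14 from 61654277 to 62017694 and encodes the eta isoform, known best from epithelia and also present in lymphocytes. Ramos gave 88 reads and Ramos640 gave 17, which is 3.83-fold lower (log2 fold change -1.94, interval -2.83 to -1.23). With so few reads the interval is wide, yet all of it lay past 1.5-fold. This held for 3 members in all (PRKCB, PRKCH and PRKCI), against 7.35% of all genes in the lower direction and 5.79% in the higher. PRKCB and PRKCH were also past 2-fold, which 8.75% of all genes were in the lower direction and 6.64% in the higher. The neighbours of PRKCH were mixed. The median over the nearest 10 genes was -0.19, and 1 of them, not drawn, was past 1.5-fold in the lower direction. The pseudogene MAD2L1P1 was highest at 0.56, and HIF1A (-0.57) and SNAPC1 (-0.52) lay next to PRKCH on the side of higher coordinates. TMEM30B, which shares 356 exon bases with PRKCH on the opposite strand, had no reads in either library.

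PRKCD was the most abundant member per length in both libraries. It encodes the delta isoform, a kinase with roles in B-cell tolerance and apoptosis, on chromosome 3 from 53190025 to 53226733. Its 5122 Ramos reads and 4617 Ramos640 reads gave a log2 fold change of 0.23 (0.17 to 0.29). With the trend over GC content removed the value was 0.087.

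PRKCE (epsilon) and PRKCQ (theta) were slightly lower in Ramos640. PRKCE spans 45878484 to 46415129 of chromosome 2, and its 2215 and 1442 reads gave -0.24 (-0.33 to -0.14). PRKCQ is best known as the isoform of the T-cell synapse and lies on chromosome 10 from 6469105 to 6622263. Here 1166 Ramos reads stood against 755 Ramos640 reads (-0.25, interval -0.38 to -0.11). Transcripts of T cells were near absent beside it. CD3D, CD2, CD5, CD8A and TRAT1 had 0 reads in both libraries, and the 9 T-cell markers summed to 1.10 CPM (counts scaled to the library total) for Ramos and 3.53 for Ramos640. The 3 of them with at least 10 reads were all higher in Ramos640, namely CD3E (1 and 31 reads), CD4 (11 and 19) and CD247 (25 and 58). Whether any PRKCQ reads came from other cells was not tested.

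Of the atypical isoforms, PRKCI was lower and PRKCZ was not. These kinases, iota and zeta, work in cell polarity complexes and ignore diacylglycerol. PRKCI spans 169940212 to 170023765 of chromosome 3, and Ramos held 1703 of its reads and Ramos640 held 677. The log2 fold change was -0.95 (-1.08 to -0.82), or 1.93-fold lower, and it is the best counted of the 3 members past 1.5-fold. Its transcript has the lowest GC content of the family (38.7%), and log2 fold changes in these libraries depended on GC content. With that trend removed PRKCI stood at -0.68, still past 1.5-fold. PRKCZ spans 1981850 to 2116834 of chromosome 1, with 688 and 578 reads (0.13, interval -0.032 to 0.29), so a difference was not detectable at this depth. It shares 590 exon bases with C1orf86 on the opposite strand (364 and 319 reads), and whether the counting used the strand is not stated, so some of its reads may belong there.

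The PKD kinases were well read in both lines. PRKD3, which had the most reads of all members, stood at 8852 in Ramos against 5632 for Ramos640, or -0.27 on the log2 scale (-0.32 to -0.22). Its GC content (38.9%) is close to that of PRKCI, and without the GC trend its value was 0.022. PRKD3 lies on chromosome 2 from 37477645 to 37551976 and shares 265 exon bases with C2orf56 on the opposite strand (828 and 500 reads). PRKD2, the PKD isoform known best from lymphocytes, spans 47177532 to 47220384 of chromosome 19, with 2342 and 1864 reads (0.052, interval -0.037 to 0.14), and scaled to total counts its value was -0.028. PRKD1 had 0 reads in both libraries, which allows levels up to 0.0789 CPM for Ramos and 0.0972 for Ramos640.

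**Figure D3:**
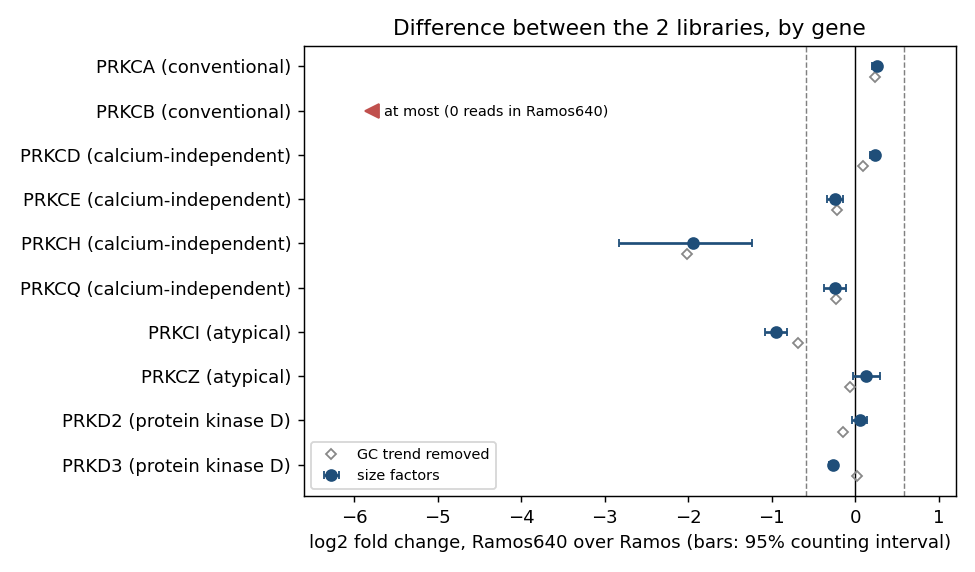
Log2 fold change, Ramos640 over Ramos, of each PKC and PKD gene with its 95% counting interval (blue), and the same value with the trend over GC content removed (grey diamonds). Dashed lines mark 1.5-fold. PRKCB is a bound at -5.79, PRKCH and PRKCI lie wholly below the lower line, and the other 7 genes lie between the lines.

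Counting intervals lay below 0 for 6 of the 10 members (60%) and above 0 for 2 (20%), against 31.6% and 29.6% of all genes tested. The 6 were PRKCB, PRKCH, PRKCI, PRKCE, PRKCQ and PRKD3, and the 2 were PRKCA and PRKCD. Whether an interval clears 0 depends on read number as well as on the fold. The members had a median of 1959 reads in Ramos, while the genes tested start at 10 reads in both libraries together. No share among genes of like depth was taken, so these shares are not a trait of the family. All 3 genes past 1.5-fold remained past it under TMM factors, total counts and removal of the GC trend. Total counts moved the median of all genes tested by -0.080 on the log2 scale.

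**Figure D4:**
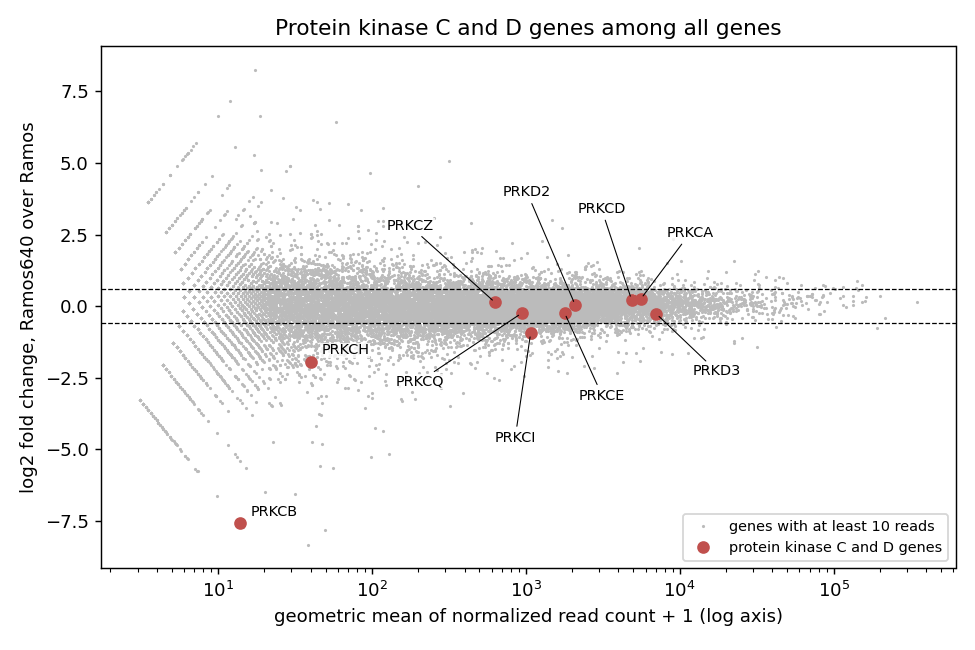
Log2 fold change, Ramos640 over Ramos, against the geometric mean of the normalized read counts plus 1 (log axis) for the 18778 genes with at least 10 reads (grey) and the 10 PKC and PKD genes (red). Dashed lines mark 1.5-fold. PRKCB is drawn at the value that the pseudocount of 1 gives, at the lower edge of the cloud, while 7 of the members lie between the lines.

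Per length, the family was led by the same 4 genes in both libraries. In Ramos the order was PRKCD (27.4 RPKM), PRKD3 (22.7), PRKCA (13.7), PRKD2 (10.9), PRKCQ (9.33), PRKCI (7.75), PRKCE (5.84), PRKCZ (2.35), PRKCB (0.514) and PRKCH (0.259). In Ramos640 PRKCD stood at 30.5 RPKM, PRKD3 at 17.8, PRKCA at 15.6 and PRKD2 at 10.7. PRKCE (4.68) then came before PRKCI (3.80), and PRKCH (0.0615) before PRKCB (0), while the other places were unchanged. The counting intervals of neighbours in these orders did not overlap. The order rests on the combined length of all exons of a gene, however. With the longest transcript as the length, the intervals of PRKD2 (17.2) and PRKCA (17.1) in Ramos overlapped. So did those of PRKCQ with PRKCE and with PRKCI and of PRKCB with PRKCH, and in Ramos640 those of PRKCZ with PRKCE and with PRKCQ. The order changed too, with PRKCE above PRKCQ and PRKCI in both libraries. In Ramos640 PRKCZ (7.85, interval 7.22 to 8.52) stood above PRKCI (4.49, interval 4.16 to 4.84), the reverse of the order above.

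Summed over the 10 members, the family came to 100.8 RPKM in Ramos (counting SE 0.651) and 92.9 in Ramos640 (0.695). The ratio was 0.922, and 0.974 when the library sizes followed the size factors. Calcium-independent isoforms held 42.5% of the sum in Ramos and 45.9% in Ramos640, and PKD kinases 33.3% and 30.6%. The conventional share was 14.2% in Ramos and 16.8% in Ramos640, and came from PRKCA alone in the latter. The atypical share was 10.0% and 6.71%. Each share has a counting SE below 0.4 percentage points.

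PKN2 and PKN3 are relatives of PKC, and neither was past 1.5-fold. PKN2 had 792 and 447 reads (-0.44) and PKN3 had 594 and 409 (-0.16). With the GC trend removed PKN2 stood at -0.12 and PKN3 at -0.34, so which of them was lower depended on the processing.

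Around the members, 9 lists of pathway genes (the relatives included) held 107 genes with a row, of which 93 had at least 10 reads. Of these 93, 6.45% were higher and 11.8% were lower by more than 1.5-fold, against 14.6% and 17.3% of all genes. These are 6 genes higher and 11 lower, and with total counts the split was 4 and 15. Most of these pathway genes were thus not past 1.5-fold, but the same holds for all genes tested, of which 31.9% were past it in either direction. The shares over all genes fall when more reads are required, and no share among genes of like depth was taken. These shares are therefore not a trait of the pathway. The pathway genes that were past 1.5-fold are named by list. Genes with fewer than 100 reads among them, as well as PDPK1, BTK, SYK, BLNK, MARCKS and MARCKSL1, were named after their values were seen, and the intervals of PLCH2, CHN1 and RIN1 include 0 and their calls were lost with a pseudocount of 10.

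Phospholipase C makes the diacylglycerol. Of 11 genes tested, 1 was higher and 2 were lower. PLCG2, the isoform of the B-cell receptor and the best read of the list, had 22813 and 16188 reads (-0.11). PLCB2, a G-protein-coupled isoform, had 103 reads in Ramos and 1 in Ramos640 (-5.41, interval -11.62 to -3.80). PLCD3 (50 and 12 reads) was lower and PLCH2 (11 and 14) was higher.

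Diacylglycerol kinases remove the lipid, and 1 of 7 was lower and none higher. DGKA had 1571 and 774 reads (-0.64), while DGKD, the best read, had 14786 and 9117 (-0.32). Of 7 other proteins that bind diacylglycerol through a C1 domain, 3 were lower and 1 was higher, with a median of 0.036. RASGRP1, a Ras activator, had 1275 reads in Ramos and 118 in Ramos640 (-3.04, interval -3.34 to -2.78), and RASGRP2, a Rap activator, had 2150 and 901 (-0.87). RASGRP3, the best read, was at 0.047 with 4827 and 3830 reads. CHN1 (9 and 2 reads) was the other lower gene and RASGRP4 (5 and 14) the higher.

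Newly made PKC is primed by PDPK1 and mTOR complex 2 and is folded by HSP90. Here 1 of 13 genes was higher and 1 lower, and both are parts of mTOR complexes. RICTOR, specific to complex 2, had 532 and 234 reads (-0.80, and -0.46 with the GC trend removed, no longer past 1.5-fold), and MLST8, shared by both complexes, had 2659 and 3549 (0.80). PDPK1 was at 0.036 (2470 and 1945 reads), and HSP90AB1, the best read, at 0.038.

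Of 13 scaffold and anchor genes, 2 were lower and none was higher. GNB2L1, which encodes RACK1, the receptor for activated PKC, had 49854 and 44066 reads (0.20). The lower genes were the anchoring proteins AKAP5 (62 and 28 reads, not past 1.5-fold with the GC trend removed) and AKAP12 (30 and 6). Of 15 substrates tested, 1 was higher and 1 lower. VIM (vimentin) had 167 and 32 reads (-1.97), RIN1 had 3 and 7, and STMN1, the best read, had 70282 and 42059 (-0.36). MARCKS, the classical PKC substrate, had 0 reads in both libraries, and its relative MARCKSL1 had 2662 and 2023 (-0.015).

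Upstream and downstream of PKC beta in the antigen receptor pathway, few genes passed 1.5-fold. Of 10 input genes, 1 was higher, CD79B, a signalling chain of the receptor, with 69495 and 82890 reads (0.64). Its value was 0.45 with the GC trend removed and 0.56 with total counts, neither past 1.5-fold. BTK (-0.080), SYK (0.014) and BLNK (0.041) were near 0. In the relay to NF-κB, 1 of 14 genes was higher and 1 lower. These were IKBKB, an IκB kinase (1562 and 1900 reads, 0.66), and BCL10, an adaptor of this relay (332 and 169 reads, -0.59). The BCL10 call was lost with the GC trend removed (-0.29) or a pseudocount of 10 (-0.57), and the IKBKB call narrowly with total counts (0.58).

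**Figure D5:**
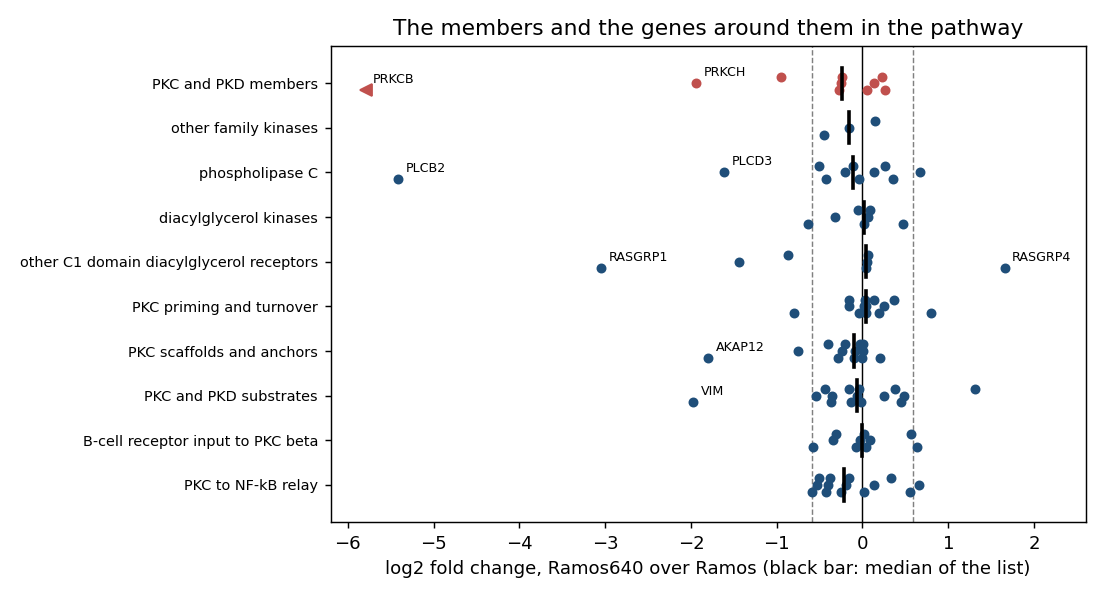
Log2 fold change, Ramos640 over Ramos, of the PKC and PKD members (red) and of the genes of each pathway list (blue) with at least 10 reads, with the median of each list as a black bar and 1.5-fold as dashed lines. PRKCB is a bound. The medians lie between -0.24 and 0.036, and PRKCB, PLCB2 and RASGRP1 lie farthest from 0.

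Both libraries carried the B-cell transcripts that the label implies. All 8 B-cell markers were read in both. PAX5 (-0.80) and MS4A1 (-1.96), the gene of CD20, were lower in Ramos640 by more than 1.5-fold, and CD79B (0.64) and CD74 (0.63) were higher, with a list median of 0.18. The higher calls were lost with the GC trend removed (0.45 and 0.49) and with total counts (0.56 and 0.55). Of 6 germinal centre markers, LMO2 (-1.33), MME (-0.92) and MYBL1 (-0.63) were lower by more than 1.5-fold and none was higher, and MYBL1 (-0.31) was not past it with the GC trend removed. The 8 monocyte markers summed to 20 and 17 reads and the 5 epithelial markers to 43 and 16, with MPO, ITGAM and FCGR1A at 0 in both. Among these S100A8 (13 and 4 reads), CSF1R (3 and 9), KRT8 (18 and 3) and KRT18 (19 and 11) reached 10 reads. The part of other cells in the members' values was not tested beyond these counts. In such bulk libraries fewer cells with a transcript and less of it per cell cannot be told apart, and this holds for PRKCI and PRKCH as for PRKCB in Ramos.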

How the data were processed

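RNA-seq was analysed for Ramos and Ramos640 cells (1 library each, pooled by the authors from 3 passages). The authors removed adaptor sequences from Ion reads, aligned them to GRCh37 with MapSplice and deposited whole-number read counts per gene without normalization. The counting program, annotation, strand setting and treatment of multiply mapped reads are not given in the sources used here. The libraries held 38030090 (Ramos) and 30871826 (Ramos640) reads. Each library's group came from its title. Of the rows, 28 are numbers left by a spreadsheet, and they were kept.

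Size factors came from the median of ratios, the scaling of the DEseq method that the study named. The log2 fold change used a pseudocount of 1 on normalized counts, with a minimum of 10 reads in the 2 libraries together and the study's fold of 1.5. A single library per line leaves no dispersion to estimate, so no count model was fitted and no p-value is given. Intervals at 95% are exact (Clopper-Pearson for folds, Poisson for levels), and a count of 0 was given a floor of 3 reads. These cover counting error only. RPKM values used all exons of GENCODE v44lift37 on GRCh37. TMM factors came from edgeR (4.0.16). The GC trend was a running median over 501 of 10246 protein-coding genes with at least 100 reads (84.1% of genes tested had an annotation match). The size factors, fold changes and their intervals were tested on simulated Poisson counts, which hold no variation between cultures. The other steps were not tested in this way.

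The members and lists were chosen with earlier results of these data known. Named genes are the members, PRKD1 and other relatives, up to 3 genes per list with the largest change past 1.5-fold and at least 100 reads with the best-read gene, the 5 genes most like PRKCB, the 5 nearest genes on each side of members past 2-fold, and markers of other cell types with at least 10 reads. Others were named after their values were seen. Some genes that this rule names are not reported here.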

Additional observations from a re-analysis of the deposited data

How the results depend on the processing

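With no replicates, every value rests on a single library per line, and the intervals cover counting error only. No paired analysis was possible because each line has 1 library. PRKCB and PRKCH rest on few reads. Under the other scalings, pseudocounts, read minimums and call rules tried, no member was past the fold in the higher direction, and 3 were in the lower direction except with a 2-fold call (2). PRKD2 turned to -0.028 with total counts, and PRKD2 (-0.15), PRKD3 (0.022) and PRKCZ (-0.058) changed sign with the GC trend removed. Of the pathway genes, 4 were higher and 15 lower with total counts, 4 and 9 with the GC trend removed, 4 and 9 with a pseudocount of 10, and 8 and 12 with a minimum of 1 read. Further, 3 were higher and 7 lower with a minimum of 100 reads, 2 and 6 with a 2-fold call, and 2 and 6 where the whole interval had to be past 1.5-fold. The last 3 rules admit fewer genes by construction. Of all genes, 12.5% were higher and 20.4% lower with total counts, and 12.6% and 14.9% with the GC trend removed. The shares were 11.5% and 13.9% with a pseudocount of 10, and 20.2% and 22.9% with a minimum of 1 read. With a minimum of 100 reads they were 9.94% and 12.6%. With a 2-fold call they were 6.64% and 8.75%, and by the interval rule 5.79% and 7.35%. The number of pathway genes tested at each other minimum is not given here. With the longest transcript as the length, the family came to 157 RPKM in Ramos and 146 in Ramos640, and the shares in Ramos and Ramos640 were 11.4% and 13.3% (conventional), 10.7% and 8.44% (atypical) and 35.1% and 31.8% (PKD). With library sizes after the size factors the sums were 98.0 and 95.5 RPKM, a ratio of 0.974.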
